A study of Mus musculus with 2 samples.

Results

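The genes described here are 44 of the 32285 genes listed in the count matrices: 20 that cells express while they copy their DNA, called the S phase list, and 24 that they express while they condense, align and divide their chromosomes, called the mitosis list. They were taken by symbol, and all 44 were found. They were read in leukocytes of MC38 tumors. MC38 is a mouse colon adenocarcinoma line.

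The study set a ketogenic diet against a normal diet in tumor-bearing mice. Female C57BL/6J mice aged 6 to 8 weeks received 500000 MC38 cells under the skin of the flank. The ketogenic group was fed its diet from day 4, the normal group was fed normal diet, and tumors of both groups were taken on day 14. Leukocytes were enriched through their surface protein CD45 after dead cells had been removed, cells of 5 mice were combined, and 1 Chromium 3′ library (version 3.1) was made for each diet. With 1 library of pooled mice per diet there is no replicate check of any difference between the diets. Intervals are therefore 95% intervals that cover counting error only, and since the UMIs of 1 cell come together they are narrower than the true error. No test between the diets was possible.

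A cell that divides first loads the Mcm2 to Mcm7 helicase onto its replication origins, then fires them with Cdc45 and the GINS complex. During S phase it copies its DNA with the sliding clamp Pcna, while Rrm1, Rrm2, Tyms, Tk1 and Dut supply nucleotides. Cyclins A and B with Cdk1, the Aurora and Plk1 kinases, centromere proteins, kinesin motors and the anaphase enzyme Ube2c then drive mitosis. NK cells and CD8 T cells are known to divide in inflamed tissue after cytokine or antigen signals. Neutrophils and circulating monocytes are known as cells that have left the cycle, and macrophages of tissues can divide locally.

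The libraries held 42710007 UMIs (unique molecules counted) in the ketogenic and 37575996 in the normal library. Of their barcodes, 5944 and 5671 had at least 500 UMIs and 300 genes, with medians of 3922 and 4200 UMIs. Each barcode was given a class from marker genes that include none of the 44. The gates gave 1609 NK cells, 348 CD8 T cells, 475 macrophages and 882 monocytes in the ketogenic library, and 929, 324, 1136 and 879 in the normal library. Barcodes with markers of several lineages, 18.6% in the ketogenic and 18.9% in the normal library, were left out as mixed. Free RNA, read from barcodes of at most 100 UMIs, itself held 1143 and 988 CPM (UMIs per 1000000 UMIs) of the S phase list and 1982 and 1570 CPM of the mitosis list in the ketogenic and normal library. Judged by macrophage markers in NK cells, free RNA made up 3.45% of NK cell UMIs in the ketogenic and 3.39% in the normal library. That share would carry 39.5 and 33.5 CPM of the S phase list.

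Lymphocytes and tumor-type cells carried the S phase and mitosis genes, and monocytes, neutrophils and most dendritic cells carried little of them. The S phase list summed to 1840 CPM in ketogenic and 1789 CPM in normal CD8 T cells. In NK cells it summed to 1445 CPM in the ketogenic library (1419 to 1472) and 1488 CPM in the normal library (1456 to 1522). Other T cells had T cell markers but did not pass the gates of CD8, regulatory or Il17-type gamma-delta T cells. UMIs of Cd8a or Cd8b1 below the CD8 gate were allowed in them. Other T cells stood at 1233 CPM in the ketogenic and 1101 CPM in the normal library. CD8 T, NK and other T cells stood apart from the myeloid classes in both diets. Macrophages held 464 CPM of the S phase list in the ketogenic and 412 CPM in the normal library, monocytes held 182 and 217 CPM, and neutrophils 149 and 155 CPM. Tumor-type cells, gated on keratin genes and other genes of the tumor line and low in Ptprc (the gene of CD45), were highest, with 2190 CPM in the ketogenic and 2609 CPM in the normal library. Ptprc was at 15.4 and 25.8 CPM in these 79 ketogenic and 66 normal cells, against 871 and 1049 CPM in ketogenic and normal NK cells.

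The mitosis list gave nearly the same order. It summed to 4135 CPM in ketogenic and 3838 CPM in normal tumor-type cells, and to 3057 and 3374 CPM in ketogenic and normal CD8 T cells. NK cells stood at 2265 CPM in the ketogenic and 2132 CPM in the normal library. Other T cells had 1797 CPM in the ketogenic and 2185 CPM in the normal library, so NK cells stood above other T cells in the ketogenic library only. Macrophages had 818 CPM in the ketogenic and 516 CPM in the normal library, and monocytes 376 and 415 CPM. Neutrophils reached 543 and 594 CPM of this list, of which the chromatin protein gene Hmgb2 alone gave 439 and 378 CPM. Hmgb2 is one of 7 members that many resting cells also express. Without those 7, neutrophils held 73.2 CPM in the ketogenic and 155 CPM in the normal library of the mitosis list, and NK cells held 1039.6 CPM in the ketogenic and 1020.9 CPM in the normal library. In sums over a class, fewer cycling cells and less of these transcripts per cell cannot be told apart.

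**Figure D1:**
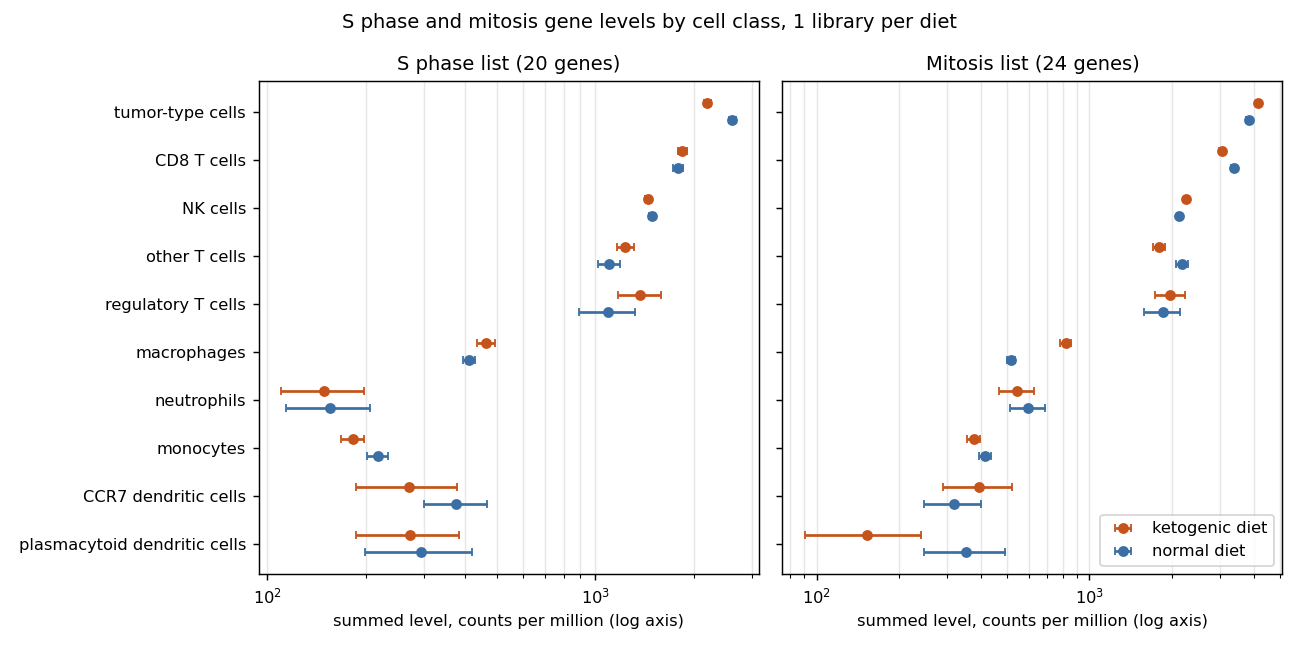
Summed level of the S phase list (left panel) and mitosis list (right panel) in CPM on a log axis, for the 10 classes with at least 20 cells in each library. Points are the ketogenic and normal library and bars are 95% Poisson intervals for counting error; tumor-type cells and lymphocytes stand to the right of all myeloid classes, and the libraries of 1 class differ most in macrophages and plasmacytoid dendritic cells on the mitosis list.

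Gene by gene the gap between lymphocytes and monocytes held for nearly every member. Of the 44 members, 42 were more than 2-fold higher in NK cells than in monocytes in both libraries, against 12.8% of all measured genes (5 CPM were added to each level before ratios of single genes were taken). The other 2 were the spindle kinase gene Aurka and the cytokinesis motor gene Kif23. Against macrophages, 30 of 44 were more than 2-fold higher in NK cells in both libraries, where 9.16% of measured genes were. CD8 T cells and NK cells were close: none of the 44 differed by more than 2-fold in both libraries. By that limit 2.38% of all genes were higher in CD8 T cells, so the count lies near that of all genes. Without a limit, 37 of 44 were higher in CD8 T cells in both libraries. The helicase genes Mcm2, Mcm3 and Mcm6 were among the 7 exceptions. The same share over all genes was not counted. The median log2 ratio of the 44 was 0.366 in the ketogenic and 0.370 in the normal library, against 0.085 and 0.088 over all measured genes. CD8 T cells exceeded other T cells by more than 2-fold in both libraries for 3 of 44 members, Rrm2, Pclaf and the spindle factor gene Tpx2 (background 1.01%).

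Among myeloid cells, macrophages carried more of the S phase list than monocytes. Of the 37 members with at least 20 UMIs over the 2 classes in each library, 10 were more than 2-fold higher in macrophages in both libraries, against 3.32% of genes. They were the helicase genes Mcm2 and Mcm3, the fork gene Gins2, the nucleotide genes Rrm1, Rrm2 and Tk1, the clamp-binding factor gene Pclaf, and Top2a, Cdk1 and Stmn1 of the mitosis list. Pclaf stood at 44.8 CPM in ketogenic and 19.4 CPM in normal macrophages, and at 5.92 and 3.28 CPM in ketogenic and normal monocytes. Tumor-type cells had the highest level of 10 classes in both libraries for 29 of 44 members (background 21.6% of genes). They exceeded CD8 T cells by more than 2-fold in both libraries for 6 members, a count that does not exceed the background of 17.8% of genes. The 6 were Gins2, Cdk1, Aurka, Aurkb, Plk1 and the spindle gene Tacc3.

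Smaller classes were measured less firmly. Regulatory T cells (31 ketogenic and 24 normal cells) held 1369 and 1093 CPM of the S phase list and 1977 and 1853 CPM of the mitosis list. In them 1 cell gave 39.3% of the mitosis list in the ketogenic and 56.2% in the normal library. Macrophage markers stood at 638 CPM in the ketogenic regulatory T cells, against 167 CPM in the normal ones. Read as free RNA, they would put its share at 48.9% in the ketogenic and 3.93% in the normal cells. Such shares would carry 559 and 38.9 CPM of the S phase list and 970 and 61.7 CPM of the mitosis list. The part of free RNA in the values was not tested. CCR7 dendritic cells had 270.5 CPM of the S phase list in the ketogenic and 377 CPM in the normal library, and plasmacytoid dendritic cells 273 and 295 CPM. All 4 values lay below the NK cell level of the same library, and for this list the intervals of the diets overlap. On the mitosis list plasmacytoid dendritic cells had 153 CPM in the ketogenic (90.9 to 242) and 354 CPM in the normal library (248 to 490.4), from 29 and 24 cells. Type 2 dendritic cells (15 ketogenic and 28 normal cells) had 166 and 578 CPM of the S phase list and 287 and 712 CPM of the mitosis list. Their normal values lay above those of normal macrophages, and 1 cell gave 40.2% of the S phase and 58.4% of the mitosis UMIs there. Il17-type gamma-delta T cells held 1078 and 817 CPM of the S phase list in 65 ketogenic and 12 normal cells. Their mitosis list stood at 1825 CPM in the ketogenic and 622 CPM in the normal library (ratio 2.93, 2.04 to 4.35), with 29.9% of the ketogenic UMIs in 1 cell. The estimated share of free RNA was 11.5% in the ketogenic and 1.38% in the normal gamma-delta T cells. It would carry 229 and 21.6 CPM of their mitosis list, and its part in the ratio was not tested.

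To count cells rather than UMIs, each cell was thinned to 2000 UMIs, and a cell was counted as cycling when it held at least 3 UMIs from at least 2 genes of 1 list. By this limit 35.6% of ketogenic NK cells (428 of 1201, 32.9% to 38.4%) and 39.2% of normal NK cells (290 of 739, 35.7% to 42.9%) were cycling. CD8 T cells gave 44.9% in the ketogenic (145 of 323) and 43.2% in the normal library (131 of 303), and other T cells 34.8% and 33.6%. In these 3 classes the intervals of the diets overlap. They also overlap in the small classes, where 6 of 19 ketogenic and 5 of 11 normal regulatory T cells and 18 of 43 ketogenic and 3 of 12 normal gamma-delta T cells were past the limit. Tumor-type cells gave 79.5% and 79.4%. Macrophages gave 8.13% in the ketogenic (33 of 406) and 8.60% in the normal library (87 of 1012), and monocytes 4.02% and 4.50%. Neutrophils gave 0 of 51 ketogenic cells, which allows a share of up to 5.88% (3 cells of 51), and 4 of 39 normal cells, 10.3% (2.87% to 24.2%), of which 3 were mitosis-only. Neutrophils are known not to divide, so their shares were taken as a rough background from few cells. Most of their mitosis list is Hmgb2, so this background need not hold for other classes. The monocyte shares lay below the neutrophil limit or share of the same library. The ketogenic macrophage share lay above the ketogenic limit of 5.88% and the normal one below the normal neutrophil share of 10.3%. At this limit the macrophage shares are thus not separated from the neutrophil shares in both libraries. Over all gated cells, also those too shallow to be counted, the median depth was 1199 and 992 UMIs in neutrophils and 3829 and 3985 UMIs in macrophages, in the ketogenic and normal library. Among counted cells that were not cycling, medians before thinning were close, at 4438 and 4304 UMIs in neutrophils and 4131 and 4196 UMIs in macrophages.

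The limit is a range on a scale and not a border between cell types. In NK cells 350 of 1201 ketogenic and 234 of 739 normal cells had 2 or 3 UMIs in their higher list, next to the limit. Thinning left out 408 ketogenic and 190 normal NK cells as too shallow. Unthinned, the shares were 50.7% and 57.6% for NK cells and 69.3% and 63.6% for CD8 T cells in the ketogenic and normal library. Cycling NK cells were deeper before thinning, with medians of 8039.5 UMIs in the ketogenic and 7964 in the normal library, against 4241 and 4584 UMIs in other NK cells. Without the 7 broadly expressed members the shares were 23.98% and 27.5% in NK cells, 31.3% and 30.4% in CD8 T cells, 4.93% and 3.26% in macrophages, and 0.503% and 0.729% in monocytes. Neutrophils then gave 0 of 51 ketogenic cells and 1 of 39 normal cells, 2.56% (0.0649% to 13.5%).

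**Figure D2:**
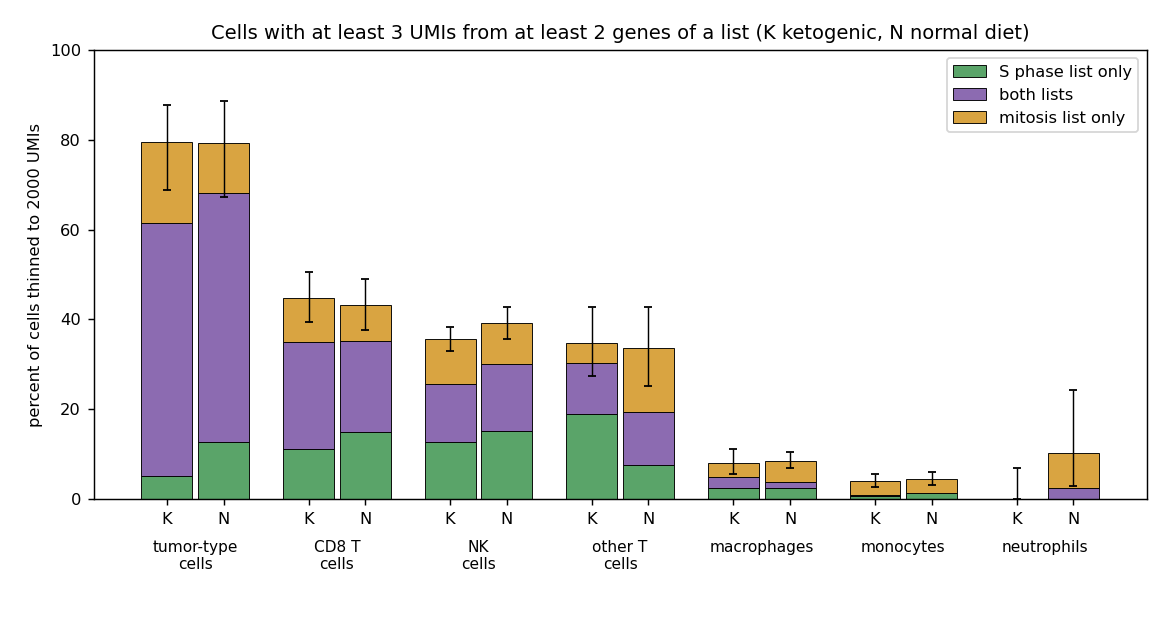
Percent of cells of each class, thinned to 2000 UMIs, that pass the limit of 3 UMIs from 2 genes in the S phase list only, in both lists, or in the mitosis list only; the ketogenic library (K) stands left of the normal library (N) in each pair. Black bars are 95% Clopper-Pearson intervals of the summed share; lymphocytes stand at 33.6% to 44.9%, tumor-type cells near 79%, and monocytes at 4.02% and 4.50%.

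Among the gated classes NK cells were the largest pool of cycling cells. They made up 54.1% of all cycling cells of the gated classes in the ketogenic library (428 of 791) and 44.2% in the normal library (290 of 656). They were also 39.7% of gated cells in the ketogenic and 23.9% in the normal library. Mixed and undecided barcodes are not in these shares. Of the mixed barcodes, 355 of 1083 in the ketogenic and 290 of 1045 in the normal library were past the limit (32.8% and 27.8%). CD8 T cells gave 18.3% and 19.97% of cycling cells, and macrophages 4.17% and 13.3%. The 79 ketogenic and 66 normal tumor-type cells held 26.3% and 27.6% of the S phase list UMIs of all gated classes. These cells were 1.95% of gated ketogenic and 1.70% of gated normal cells.

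NK cells could be split by Gzma and Gzmc, genes of cytotoxic granule proteases. NK cells with Gzma and without Gzmc had the least of the S phase list. Their S phase list stood at 615 CPM in the ketogenic and 848 CPM in the normal library, and 19.8% of them were cycling in each. NK cells with both genes held 1495 and 1525 CPM in the ketogenic and normal library, with 37.7% and 40.7% cycling. NK cells with Gzmc and without Gzma held 1664 and 1642 CPM, with 40.9% and 47.3% cycling. The 28 ketogenic and 18 normal NK cells with neither gene held 2494 and 1786 CPM, the highest of the 4 subsets, with 40.9% and 35.7% cycling. The cells with Gzma and without Gzmc were also shallower (medians of 1906 and 1868.5 UMIs, against 4724 and 5627 UMIs in cells with both). Only 197 of 443 ketogenic and 106 of 230 normal cells of that subset were deep enough to be counted. The part of depth in this order was not tested.

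Within NK cells the lists marked overlapping but not identical cells. Of the 428 cycling ketogenic NK cells, 152 passed the limit in the S phase list only, 157 in both and 119 in the mitosis list only. In the normal library these were 112, 110 and 68 of 290. CD8 T cells had 36, 77 and 32 cells in the ketogenic and 45, 62 and 24 in the normal library. Cells past the limit in both lists were thus the largest state of CD8 T cells in both diets. Tumor-type cells were mostly in both lists (44 of 62 ketogenic and 35 of 50 normal cycling cells).

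The members could then be placed along these states, each gene being left out of the lists when its own level was read. In NK cells 22 of 24 mitosis genes were higher in mitosis-only than in S-only cells in both libraries, and 16 of 20 S phase genes were higher in S-only cells. Among all measured genes 28.1% were higher in mitosis-only and 26.0% in S-only cells in both libraries. The split is partly built in, since the states come from the rest of the same list.

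Helicase and repair genes were higher in S-only than in mitosis-only cells. Mcm3 stood at 159 CPM in S-only and 28.7 CPM in mitosis-only ketogenic NK cells, and at 167 and 67.6 CPM in S-only and mitosis-only normal NK cells. Mcm2 stood at 80.5 and 16.5 CPM in those ketogenic cells and at 97.1 and 28.6 CPM in the normal ones. Ung, which removes uracil from DNA, stood at 43.9 CPM in ketogenic and 32.7 CPM in normal S-only cells, and no UMI of it was seen in mitosis-only cells of either library.

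Nucleotide and clamp genes were highest in cells past the limit in both lists. Pclaf, whose protein binds the clamp Pcna, reached 753 CPM there in the ketogenic and 605 CPM in the normal library, against 27.0 and 36.7 CPM in S-only cells. It was higher in mitosis-only than in S-only cells in both libraries, with 152 and 179 CPM. Rrm2, the regulated subunit of ribonucleotide reductase, stood at 273 and 168 CPM in cells of both lists and at 3.36 and 13.5 CPM in S-only cells. Pclaf and Rrm2 are the S phase members that went with the mitosis list in both libraries. In all, 16 of 20 S phase genes in the ketogenic and 17 of 20 in the normal library were highest in cells of both lists. This count is partly built in, since these cells are picked for high levels of the lists. The share of all genes highest in them was not counted.

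Mitosis genes differed in which state held most of them. Top2a, which untangles DNA, stood at 542 CPM in ketogenic and 514 CPM in normal cells of both lists, against 186 and 108 CPM in mitosis-only cells. Cdk1 stood at 159 and 232 CPM in cells of both lists, against 42.4 and 44.1 CPM in mitosis-only cells. Ccnb2, a B-type cyclin, was higher in mitosis-only cells, with 191 CPM in the ketogenic and 230.2 CPM in the normal library, than in cells of both lists, with 103 and 100 CPM. Cenpa, the centromere histone, likewise stood at 391 and 331 CPM against 219 and 209.5 CPM. Ccnb2 and Cenpa were the mitosis genes that were highest in mitosis-only cells in both libraries, joined by Plk1 in the ketogenic and Tacc3 in the normal library. Birc5, a subunit of the chromosomal passenger complex, and Ube2c, the ubiquitin-conjugating enzyme of anaphase, were at most 9.80 CPM in S-only cells of either library and above 200 CPM in mitosis-only cells of both.

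**Figure D3:**
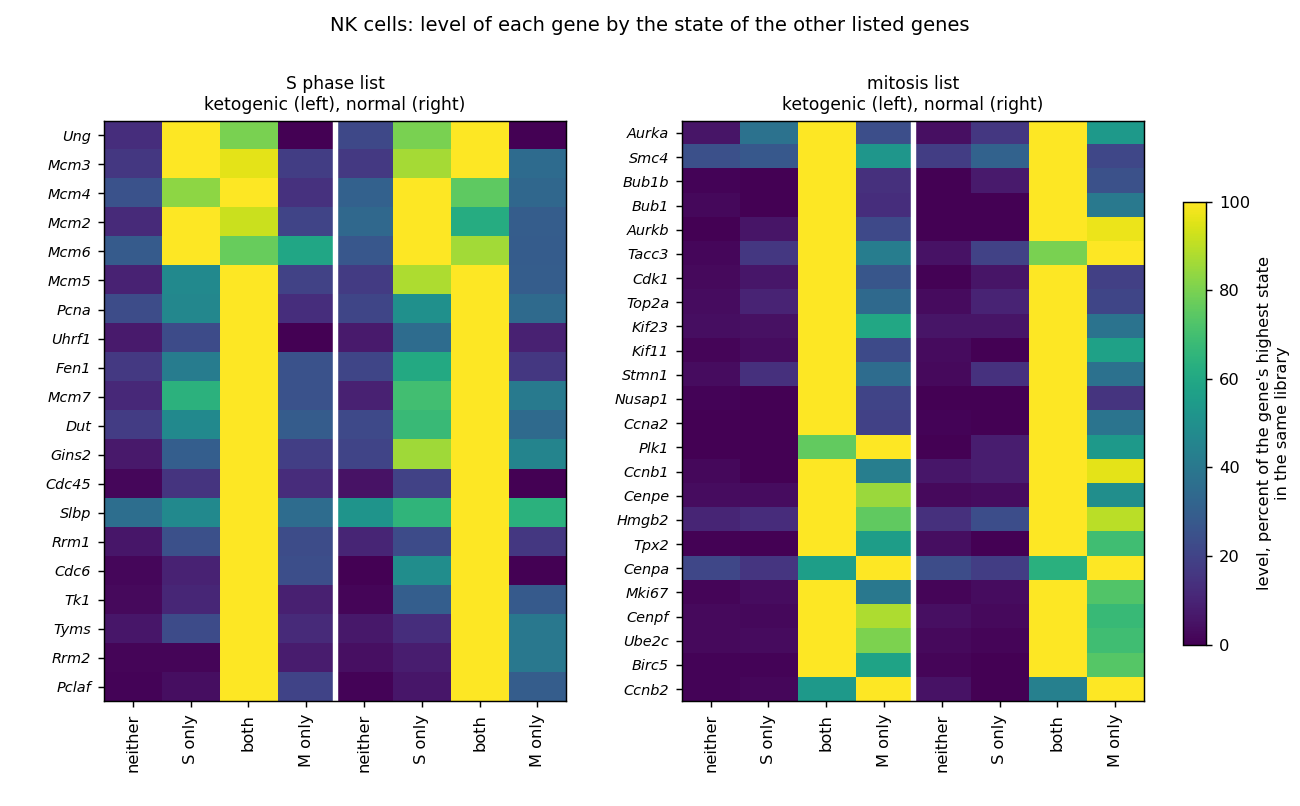
Level of each S phase gene (left panel) and mitosis gene (right panel) in NK cells by state, as percent of the same gene's highest state in the same library, with the ketogenic library left of the white line and the normal library right of it. Genes are ordered by their ratio of mitosis-only over S-only level, from the lowest at the top to the highest at the bottom. Mcm2 and Mcm6 are brightest in S-only cells, Pclaf and Rrm2 in cells of both lists, and Ccnb2 and Cenpa in mitosis-only cells.

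Other genes of the pathway, none of which entered the states, followed the same order in NK cells. Of 28 measured genes of origin licensing and the replication fork, 22 were higher in S-only cells in both libraries and 1 in mitosis-only cells. Of 22 measured genes of nucleotide supply, chromatin assembly and repair, 16 were higher in S-only cells. One of them, the chromatin remodeler gene Hells, stood at 59.2 CPM in ketogenic and 89.3 CPM in normal S-only cells, against 4.20 and 7.35 CPM in mitosis-only cells. Of the mitotic genes, 8 of 9 for entry and exit, 12 of 15 of the kinetochore and 19 of 24 of the spindle and cytokinesis were higher in mitosis-only cells in both libraries. The spindle gene Hmmr had no UMI in S-only cells and stood at 71.4 CPM in ketogenic and 88.2 CPM in normal mitosis-only cells. Of 9 genes of growth arrest, 4 were higher in mitosis-only cells in both libraries. Btg1, an antiproliferative gene, stood at 1002 CPM in ketogenic and 938 CPM in normal cells past neither limit, and at 465 and 364 CPM in cells of both lists.

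CD8 T cells gave a similar picture from fewer cells. There 18 of 19 measured mitosis genes were higher in mitosis-only than in S-only cells in both libraries, against 26.9% of all genes. Of 18 measured S phase genes, 7 were higher in S-only cells in both (background 22.0%) and 3 in mitosis-only cells. Mcm3 stood at 118 CPM in ketogenic and 163 CPM in normal S-only cells, against 30.3 and 0 CPM in mitosis-only cells. The 0 comes from 24 cells. Pclaf again stood out in cells of both lists, with 806 CPM in the ketogenic and 850 CPM in the normal library.

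The lists mark partly different cells, and promoter windows of some members are shown. They span 300 bases (250 before to 50 after the start of the gene, RefSeq, build GRCm38.p6). The genes are the 3 S phase and 3 mitosis genes that differ most between the S-only and mitosis-only states and have a window. The table held 40 windows for 37 of the 44 genes. Each is written 5′ to 3′ on the strand of the gene. Capitals mark matches, on either strand, to the E2F octamers TTTCCCGC, TTTCGCGC, TTTGCCGC and TTTGGCGC, to the cell cycle homology region (CHR) hexamers TTTGAA and TTCGAA, and to the CCAAT box. E2F factors are known to bind S phase promoters and the DREAM and MuvB complexes to bind CHR elements of mitotic promoters.
The S phase genes are Ung at chr5:114130185-114130484 (plus strand), Mcm3 at chr1:20820263-20820562 (minus strand) and Mcm2 at chr6:88898731-88899030 (minus strand). The mitosis genes are Ccnb2 at chr9:70421505-70421804 (minus strand), Birc5 at chr11:117848987-117849286 (plus strand) and Ube2c at chr2:164769679-164769978 (plus strand).
Ung: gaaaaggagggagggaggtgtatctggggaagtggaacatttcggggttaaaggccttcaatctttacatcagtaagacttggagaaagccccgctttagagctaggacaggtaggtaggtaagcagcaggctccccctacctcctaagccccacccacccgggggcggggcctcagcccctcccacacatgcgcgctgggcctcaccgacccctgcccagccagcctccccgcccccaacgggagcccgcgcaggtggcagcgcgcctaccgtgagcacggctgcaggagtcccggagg
Mcm3: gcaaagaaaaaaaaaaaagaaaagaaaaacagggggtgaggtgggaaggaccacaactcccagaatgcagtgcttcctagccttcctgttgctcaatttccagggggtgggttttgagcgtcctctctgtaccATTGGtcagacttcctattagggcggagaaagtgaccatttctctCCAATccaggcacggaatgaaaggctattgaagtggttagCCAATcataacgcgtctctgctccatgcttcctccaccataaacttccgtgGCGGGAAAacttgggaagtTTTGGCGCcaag
Mcm2: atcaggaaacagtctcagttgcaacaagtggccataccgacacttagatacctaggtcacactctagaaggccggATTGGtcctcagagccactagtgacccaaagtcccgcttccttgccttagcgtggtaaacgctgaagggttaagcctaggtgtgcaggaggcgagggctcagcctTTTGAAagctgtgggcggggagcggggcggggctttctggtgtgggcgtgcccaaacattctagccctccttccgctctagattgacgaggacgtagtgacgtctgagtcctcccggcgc
Ccnb2: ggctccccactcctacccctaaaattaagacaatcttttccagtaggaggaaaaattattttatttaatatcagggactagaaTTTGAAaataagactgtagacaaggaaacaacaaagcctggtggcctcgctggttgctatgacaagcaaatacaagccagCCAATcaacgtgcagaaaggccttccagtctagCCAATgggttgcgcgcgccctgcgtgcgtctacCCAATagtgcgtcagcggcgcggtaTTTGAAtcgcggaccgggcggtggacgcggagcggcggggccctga
Birc5: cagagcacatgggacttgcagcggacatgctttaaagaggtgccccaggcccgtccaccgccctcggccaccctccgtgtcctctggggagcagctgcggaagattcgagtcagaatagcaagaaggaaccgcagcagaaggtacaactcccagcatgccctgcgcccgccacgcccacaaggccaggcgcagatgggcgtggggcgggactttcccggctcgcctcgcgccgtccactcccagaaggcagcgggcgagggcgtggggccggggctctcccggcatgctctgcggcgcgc
Ube2c: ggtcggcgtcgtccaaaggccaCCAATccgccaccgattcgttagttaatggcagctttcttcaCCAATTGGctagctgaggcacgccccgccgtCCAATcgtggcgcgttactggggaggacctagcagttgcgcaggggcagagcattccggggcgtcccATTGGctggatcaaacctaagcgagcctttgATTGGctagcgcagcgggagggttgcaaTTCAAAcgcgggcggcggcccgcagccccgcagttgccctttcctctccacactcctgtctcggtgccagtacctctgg

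In these windows Mcm3 has 2 E2F octamers and 3 CCAAT boxes, and Mcm2 has 1 CHR hexamer and 1 CCAAT box. Ccnb2 has 2 CHR hexamers and 3 CCAAT boxes, and Ube2c has 1 CHR hexamer and 6 CCAAT boxes, of which 1 pair overlaps. The windows of Ung and Birc5 hold none of these letters. Over all members, an E2F octamer was found in 7 of 21 windows of S phase genes and 1 of 19 windows of mitosis genes, against 2.26% of all 32851 promoter windows. A CHR hexamer was found in 4 of 21 S phase windows and 14 of 19 mitosis windows, against 19.2% of all windows. CCAAT boxes were in 14 of 21 and 16 of 19 windows, against 37.4% of all. All 14 mitosis windows with a CHR hexamer also held a CCAAT box, a pair found in 7.52% of all windows and in 3 of 21 S phase windows. Among the other genes of the pathway, 24 of 29 windows of spindle and cytokinesis genes and 6 of 28 windows of licensing and fork genes held a CHR hexamer. A match is a description of letters and not of binding.

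Between the diets, NK cells differed little. The S phase list was 0.971 times the normal level in the ketogenic library (0.944 to 0.999) and the mitosis list 1.06 times (1.04 to 1.09), log2 ratios of −0.04 and 0.09. A gene was counted where its ratio, with 5 CPM added to each level, passed 1.5-fold. Ratios printed with an interval are plain ratios of the levels. Of 44 members none was higher and 1 was lower in the ketogenic library, where 0.296% of 10473 measured genes were higher and 1.59% lower. The median log2 ratio of the members was −0.06, against −0.07 over all measured genes. The gene past the limit was Mcm2, at 32.6 CPM in ketogenic and 54.2 CPM in normal NK cells (ratio 0.602, 0.508 to 0.714). Other helicase genes were on the same side with smaller ratios, Mcm7 at 57.4 and 74.0 CPM and Mcm3 at 74.7 and 95.8 CPM in the ketogenic and normal library.

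The members with most UMIs in NK cells were on both sides. Dut, which clears dUTP, stood at 229.5 CPM in ketogenic and 211 CPM in normal NK cells, Pclaf at 185 and 152 CPM, and Pcna at 146 and 158 CPM. Rrm2 stood at 66.2 and 54.2 CPM and the thymidylate synthase gene Tyms at 71.4 and 61.5 CPM. In the mitosis list Hmgb2 stood at 648 and 569.8 CPM, the microtubule regulator gene Stmn1 at 432 and 363 CPM, and Top2a at 158 and 167 CPM in the ketogenic and normal library. The largest ratio upward was that of Nusap1, a spindle gene, at 52.3 and 37.9 CPM (ratio 1.38, 1.16 to 1.64). Mki67, the gene of the Ki-67 antigen, was lower in the ketogenic library, at 69.9 CPM against 87.7 CPM in the normal library (ratio 0.797, 0.704 to 0.903). Cenpf was higher, at 66.0 and 54.0 CPM, and the condensin gene Smc4 was lower, at 119 and 150.5 CPM. None of 118 other pathway genes passed 1.5-fold in either direction. With mixed barcodes assigned to their leading class the log2 ratio of the S phase list turned to 0.03.

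CD8 T cells had a lower mitosis list level in the ketogenic library, a direction that depends on how mixed barcodes are treated, and the interval of the S phase ratio includes 1. The mitosis list stood at 0.906 times the normal level (0.874 to 0.939, log2 −0.14) and the S phase list at 1.03 times (0.981 to 1.08). Of 44 measured members, 4 were 1.5-fold lower in the ketogenic library and none higher, against 6.47% and 1.96% of 8922 genes, so the count lies near that of all genes. All 4 belong to the mitosis list: Ube2c at 145 and 226 CPM, the kinetochore motor gene Cenpe at 37.3 and 59.5 CPM, the kinetochore gene Cenpf at 62.7 and 97.7 CPM, and the checkpoint kinase gene Bub1 at 11.01 and 19.1 CPM in the ketogenic and normal library. The median log2 ratio was −0.34 over the 24 mitosis genes and −0.02 over the 20 S phase genes, against −0.08 over all genes. Top2a stood at 232 CPM in ketogenic and 293 CPM in normal CD8 T cells. The members with most UMIs were level or higher in the ketogenic library, with Hmgb2 at 865 and 878 CPM, Stmn1 at 585 and 512 CPM, and Dut at 319.7 and 265 CPM.

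Of 117 other pathway genes measured in CD8 T cells, 1 was 1.5-fold higher and 11 were lower in the ketogenic library, against the same 1.96% and 6.47% of all genes. All 11 belong to the mitotic lists, and the genes of licensing and the fork lay on both sides, 15 above and 16 below a log2 ratio of 0. Those with most UMIs were Prc1, a cross-linker of the central spindle, at 47.4 and 76.4 CPM, the centromere chaperone gene Hjurp at 44.04 and 76.4 CPM, and Hmmr at 22.02 and 39.3 CPM. Cdc25b, a phosphatase that activates Cdk1, stood at 13.9 and 34.3 CPM and the anaphase activator gene Cdc20 at 17.2 and 30.3 CPM. The mitosis to S phase ratio of UMIs was 1.66 in ketogenic and 1.89 in normal CD8 T cells. Counted in cells, 33.7% of ketogenic and 28.4% of normal CD8 T cells were past the limit in the mitosis list (ratio 1.19, 0.940 to 1.504), on the other side of 1 from the UMIs. With mixed barcodes assigned, the log2 ratio of the mitosis list was 0.09, so its direction depends on how they are treated, and without the broadly expressed members it was −0.29. The estimated share of free RNA was 5.25% in the ketogenic and 8.24% in the normal CD8 T cells. That share would carry 104 CPM of the mitosis list in the ketogenic and 129 CPM in the normal library. With free RNA subtracted, the log2 ratio of the mitosis list kept its sign.

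Other T cells showed the same side more widely, from fewer UMIs. Assigning mixed barcodes, which turned the direction in CD8 T cells, was not tried for this class. Their mitosis list stood at 0.822 times the normal level in the ketogenic library (0.764 to 0.885) and their S phase list at 1.12 times (1.017 to 1.24). Without the broadly expressed members the mitosis ratio was 0.662 (0.592 to 0.739). The S phase ratio was then 1.06 (0.948 to 1.19), an interval that includes 1. Of 40 measured members, 10 were 1.5-fold lower, all in the mitosis list, and 2 were higher, both in the S phase list, against 12.3% and 5.16% of genes. Nusap1 stood at 15.4 CPM in ketogenic and 46.1 CPM in normal cells, Cdk1 at 26.1 and 50.8 CPM, and Mki67 at 66.5 and 114 CPM. The helicase gene Mcm4 stood at 74.8 and 42.9 CPM and Dut, a broadly expressed member, at 180.4 and 109.6 CPM. The largest single cell held 9.91% of the mitosis list in the ketogenic and 11.5% in the normal library. In cell counts, 30 of 55 ketogenic cycling cells were S-only and 7 mitosis-only, against 9 and 17 of 40 in the normal library. Without the broadly expressed members, 16 of 29 ketogenic cycling cells were S-only and 2 mitosis-only, against 12 and 7 of 25. The gap in S-only cells thus depends on those members.

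Macrophages held more mitosis genes in the ketogenic library. The mitosis list stood at 818 CPM in ketogenic and 516 CPM in normal macrophages, a ratio of 1.59 (1.49 to 1.69, log2 0.67), and the S phase list at 464 and 412 CPM, a ratio of 1.13 (1.04 to 1.22) whose log2 value was −0.0027 with mixed barcodes assigned. Of 44 measured members, 11 were 1.5-fold higher in the ketogenic library and none lower, against 1.26% and 5.91% of 9728 genes. Of those 11, 10 belong to the mitosis list, and all 24 mitosis genes had a ratio above 1, with Cdk1, Cenpf and Kif23 at or below 1 once the top cells named next were left out. The median log2 ratio was 0.56 over the mitosis list, 0.16 over the S phase list and −0.10 over all measured genes. One ketogenic macrophage held 14.1% of the mitosis list UMIs, against 5.30% in the top cell of the normal library. Without these cells the log2 ratio was 0.54 and 7 members were past 1.5-fold. With mixed barcodes assigned it was 0.40 with 2 members past the limit, and without barcodes over 20000 UMIs it was 0.46 with 5.

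Birc5 had the largest ratio with 5 CPM added, at 43.8 CPM in ketogenic and 14.9 CPM in normal macrophages (ratio 2.94, 2.15 to 4.03). Its UMIs came from 26 ketogenic and 42 normal cells, and without the top cells its ratio was 2.77. Ube2c stood at 35.3 and 16.6 CPM in the ketogenic and normal library and the mitotic kinase gene Plk1 at 8.45 and 2.42 CPM. Top2a stood at 43.3 and 22.1 CPM, cyclin gene Ccnb1 at 11.4 and 4.09 CPM, and Nusap1 at 9.94 and 3.72 CPM. Mki67 stood at 32.3 and 17.1 CPM, of which 1 cell gave 36.9% of the ketogenic UMIs, and without the top cells its ratio was 1.38 (0.923 to 2.03). Pclaf was the S phase gene past the limit, at 44.8 and 19.4 CPM. The members with most UMIs had smaller ratios, with Hmgb2 at 298 and 211 CPM and Stmn1 at 94.0 and 52.9 CPM. Pcna, at 92.98 and 101 CPM, and the histone messenger factor gene Slbp, at 60.2 and 64.2 CPM, were slightly lower in the ketogenic library, within their intervals.

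**Figure D4:**
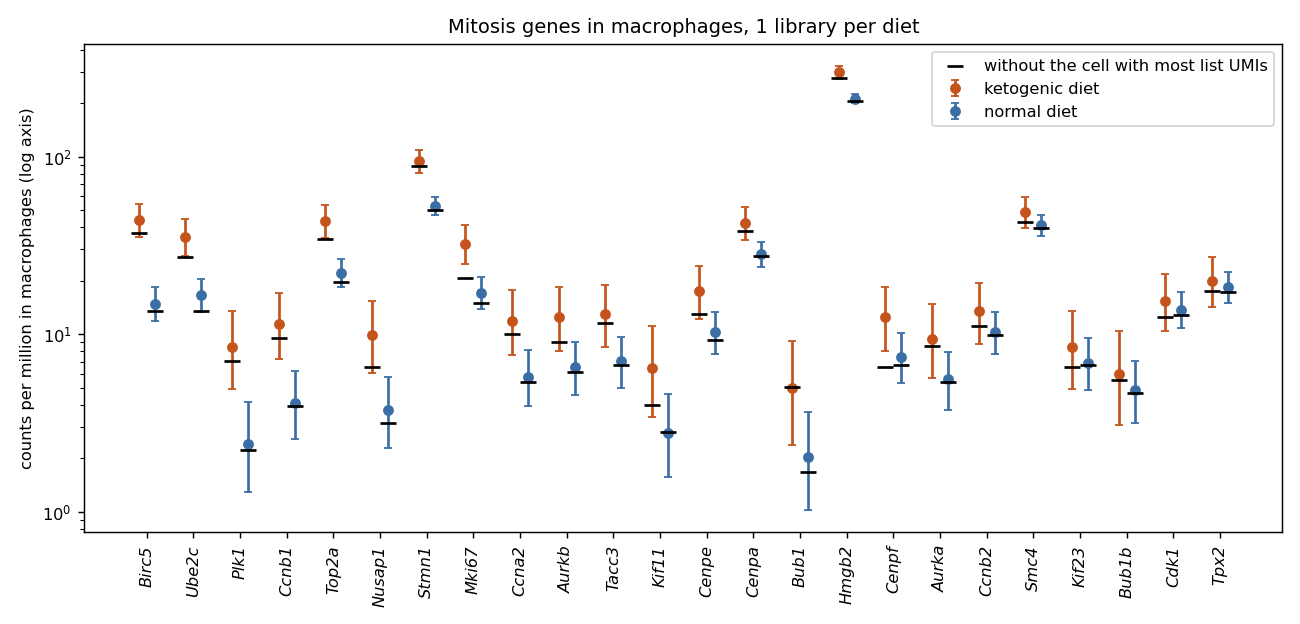
Level of each of the 24 mitosis genes in macrophages in CPM on a log axis, ketogenic library left of the normal library for each gene, with 95% Poisson intervals for counting error; black dashes give the level without the cell that holds most UMIs of the list. Every gene is higher in the ketogenic library, from Birc5 at 43.8 and 14.9 CPM to Tpx2 at 19.9 and 18.4 CPM.

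Whether the share of cycling macrophages followed these levels depended on the limit. At 3 UMIs it was 8.13% in the ketogenic and 8.60% in the normal library, and since this goes against the CPM no order is read from it. Unthinned shares also ran against the CPM, at 20.6% of ketogenic and 30.3% of normal macrophages. Stricter limits ran with the CPM. Cells with at least 5 UMIs in 1 list were 20 of 406 ketogenic and 21 of 1012 normal macrophages. With the 5 UMIs required from at least 2 genes, the log2 ratio of the shares was 1.32. Cells past the limit in both lists were 10 and 12 (2.46% and 1.19%, log2 1.05), and without the broadly expressed members 4.93% and 3.26% were past the limit (log2 0.60). Cycling macrophages had macrophage markers at 23596 CPM in the ketogenic and 18659 CPM in the normal library, against 14837 and 15320 CPM in other macrophages. Their T and NK cell markers summed to 41.9 and 72.7 CPM, against 54.6 and 55.9 CPM in other macrophages, with 8 of 15 and 13 of 15 of these markers seen. Low values are built in here, since barcodes past the T and NK marker gate were not classed as macrophages. Monocyte markers were lower in cycling than in other macrophages, at 1266 and 8626 CPM in the ketogenic and 4417 and 8329 CPM in the normal library. Macrophages without Arg1, an enzyme gene of wound-type macrophages, held 1038 CPM of the mitosis list in the ketogenic and 583 CPM in the normal library, and those with Arg1 held 427 and 361 CPM.

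Of 91 other pathway genes measured in macrophages, 10 were 1.5-fold higher and 2 lower in the ketogenic library, against 1.26% and 5.91% of all genes. Hmmr stood at 11.4 CPM in ketogenic and 1.86 CPM in normal macrophages and the chromosome motor gene Kif22 at 9.94 and 2.42 CPM. Prc1 stood at 14.9 and 8.00 CPM, the passenger complex gene Cdca8 at 22.4 and 11.7 CPM, and the origin kinase subunit gene Dbf4 at 19.9 and 10.6 CPM. The lower ones were Gins4, a GINS subunit, at 16.4 and 28.1 CPM and Fzr1, an activator of the anaphase-promoting complex, at 19.9 and 32.4 CPM.

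Monocytes held few of these transcripts. The S phase list stood at 182 CPM in ketogenic and 217 CPM in normal monocytes (ratio 0.839, 0.752 to 0.937), and the mitosis list at 376 and 415 CPM (0.906, 0.838 to 0.979). Without the broadly expressed members the mitosis ratio was 0.574 (0.494 to 0.666), and with doubled gate thresholds its log2 value turned to 0.030. Only 27 of 44 members had 20 UMIs over both libraries, of which 3 were 1.5-fold lower in the ketogenic library and none higher, against 5.74% and 1.05% of 8944 genes. They were Tpx2 at 2.49 and 10.4 CPM, Cenpf at 1.25 and 6.56 CPM, and Ube2c at 5.92 and 13.4 CPM. One normal monocyte held 10.9% of the list, 51.1% of the Ube2c UMIs and 59.1% of the Cenpf UMIs. Without the top cells the mitosis list log2 ratio was −0.03 and the ratio of Ube2c was 0.902 (0.462 to 1.75), while that of Tpx2 was 0.298 (0.118 to 0.672). Pcna stood at 49.9 CPM in ketogenic and 73.4 CPM in normal monocytes and Hmgb2 at 249.5 and 218 CPM. Of 49 other pathway genes measured, 5 were lower and none higher. Among them the histone chaperone gene Nasp stood at 17.2 CPM in ketogenic and 28.3 CPM in normal monocytes.

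Tumor-type cells had less of the S phase list in the ketogenic library, at 2190 against 2609 CPM in the normal library (ratio 0.839, 0.810 to 0.870), and slightly more of the mitosis list (1.08, 1.05 to 1.11). Of 44 measured members, 2 were 1.5-fold lower and none higher, against 4.91% and 2.23% of genes. They were Uhrf1, which reads hemimethylated DNA behind the fork, at 58.3 and 119 CPM and Ung at 19.3 and 39.4 CPM. The median log2 ratio was −0.29 over the S phase list and 0.15 over the mitosis list, against −0.06 over all genes.

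**Figure D5:**
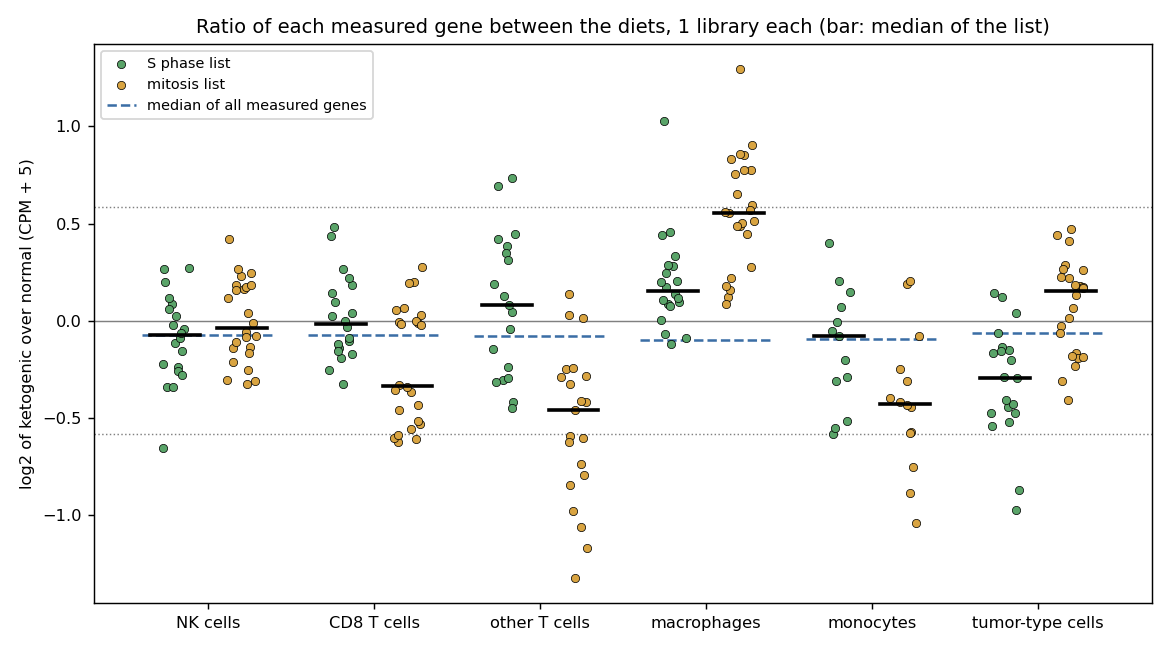
Log2 ratio of ketogenic over normal level, with 5 CPM added to each, for every measured gene of the S phase list and mitosis list in 6 classes; black bars are list medians, dashed lines the median of all measured genes, and dotted lines the 1.5-fold limits. The members lie around the all-gene median in NK cells, the mitosis genes lie above it in macrophages (median 0.56) and below it in CD8 T cells (median −0.34), other T cells and monocytes.

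The balance between the lists differed between classes and diets in UMIs. The mitosis to S phase ratio was 1.57 in ketogenic and 1.43 in normal NK cells, 1.46 and 1.99 in other T cells, 1.76 and 1.25 in macrophages, and 1.89 and 1.47 in tumor-type cells. Across diets it was thus higher in the ketogenic library in NK cells, macrophages and tumor-type cells and lower in CD8 and other T cells. In CD8 T cells this order turns with mixed barcodes assigned, where the log2 ratio of ketogenic over normal level was 0.087 for the mitosis list and 0.0071 for the S phase list. These ratios rest on 1 library each, and which differences would recur in other mice was not tested. Assigning mixed barcodes was not tried for other T cells and tumor-type cells.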

How the data were processed

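The authors deposited unfiltered matrices of UMI counts. GRCm38, mm10, Seurat 3.2.0 and Cell Ranger 6.0.0 appear in the submitters' processing notes, whereas Cell Ranger 4 is named per the file headers. Barcodes needed 500 UMIs and 300 genes; 7 barcode sequences occur in both libraries. Software was scipy 1.17.1, numpy 2.4.6, matplotlib 3.10.9 and pandas 2.3.3 under Python 3.11.15. Classes came from marker sums in CPM (lymphoid 500, myeloid 2000, macrophage 3000, monocyte 3000, neutrophil 5000, tumor-type 1000, each with 3 UMIs from 2 genes), with thresholds set after the marker distributions had been seen. Mixed barcodes stood in for doublets, and no doublet caller was run. The files carry no mark of the mouse.

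Levels are summed UMIs of a class in CPM, with exact Poisson intervals; ratios of levels have exact conditional intervals and shares Clopper-Pearson intervals, at the 95% level. Shares use cells thinned once to 2000 UMIs; members needed 20 UMIs over both libraries to be measured. State levels use a pseudocount of 20 CPM for their order. Named are, per class and list, the 3 members with most UMIs and the 3 with the largest ratio in either direction, and up to 3 other pathway genes per list with most UMIs past 1.5-fold; further genes were named after their values were seen. The members and lists were chosen with earlier results of these data known. Alternatives changed gates, mixed barcodes, barcode size, lists, thinning, limits and pseudocounts, or subtracted free RNA. They were run for NK cells, CD8 T cells, macrophages and monocytes only. The scripts were tested on simulated data.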

Additional observations from a re-analysis of the deposited data

Results flagged for a closer look

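The sign of the ratio between the diets was not the same in every class, and the differences between classes were not tested, since each diet has 1 library. For the S phase list the log2 ratio of ketogenic over normal level was 0.17 in macrophages, against −0.042 in NK cells and −0.25 in monocytes. For the mitosis list it was 0.67 in macrophages and 0.087 in NK cells, against −0.14 in CD8 T cells and −0.14 in monocytes.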

How the results depend on the processing

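No paired analysis was possible because each diet has 1 library of pooled mice. Under the alternatives, 120 values stayed within the counting interval or count limit of the reported value and 32 did not. Of the list levels and shares, 15 values had the other sign, 4 of them where the reported interval was clear of 0; in 7 others, 3 CD8 S phase levels, the lowest at −0.023, and 4 cycling shares, the value stayed within its interval. With mixed barcodes assigned to their leading class, the log2 ratio of the S phase list became 0.030 in NK cells and −0.0027 in macrophages, that of the mitosis list 0.17 in NK cells, 0.087 in CD8 T cells and 0.40 in macrophages, and 2 macrophage members were higher. With doubled gate thresholds the mitosis list gave −0.069 in CD8 T cells, 0.51 in macrophages and 0.030 in monocytes. Without barcodes over 20000 UMIs it gave 0.051 in NK cells, −0.22 in CD8 T cells and 0.46 in macrophages, with 5 macrophage members higher. Without the broadly expressed members the S phase list gave −0.084 in NK cells, the mitosis list gave 0.026 in NK cells, −0.29 in CD8 T cells, 0.84 in macrophages and −0.80 in monocytes, and the log2 ratio of the cycling share of macrophages was 0.60. Without the member with most UMIs the mitosis list gave 0.049 in NK cells, 0.77 in macrophages and −0.64 in monocytes. At 5 UMIs the cycling share of macrophages had a log2 ratio of 1.32. With a pseudocount of 1 CPM 18 macrophage members were higher, with 20 CPM 5 were, and with a minimum of 100 UMIs 6 were; with 20 CPM the count of lower NK members was 0. In alternatives chosen after seeing the data, leaving out the cell with most list UMIs of each library gave a mitosis list log2 ratio of 0.54 in macrophages, with 7 members higher, and −0.026 in monocytes, and cells past the limit in both lists gave log2 ratios of the cycling share of 1.05 in macrophages and 1.05 in monocytes, the second from 2 ketogenic cells and 1 normal cell. The cause of these changes was not tested. Setting the median of well-measured genes to 0 shifted ratios by 0.03 to 0.08. Monocytes and neutrophils held too few UMIs for most single members, and small classes rest on few cells.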
